A study of Mus musculus with 9 samples.

Results

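Among genes whose level was raised in mouse embryonic stem (ES) cells overexpressing LAMP2A, 73 were still at least 2-fold above the vector control after treatment with DM-αKG. They were chosen by level, with some symbols left out. On CPM (each count scaled to the library total), with 0.5 CPM added, a gene had to have a log2 ratio of at least 1 over VT both in LAMP2A and in LAMP2A+DM-αKG, and a mean of at least 5 CPM in LAMP2A+DM-αKG. Of 24421 genes listed, 80 met these thresholds, and 7 of them were left out by symbol (collagen, keratin and similar families and some hypoxia-regulated genes), which leaves the 73. The study sequenced mRNA of D3 cells, a mouse ES cell line, in 9 libraries. The groups were LAMP2A+DM-αKG, LAMP2A-overexpressing cells given 4 mM DM-αKG for 72 h, then LAMP2A, the same overexpression without DM-αKG, and VT, cells stably carrying the pCDH control vector, with 3 libraries each. Culture was feeder-free on gelatin-coated dishes, with fetal bovine serum and ESGRO, a leukemia inhibitory factor (LIF) product. The labels do not say whether the cells were clones or pools, nor whether replicate libraries stem from separate cultures. The p-values therefore measure spread among these libraries alone, which may be technical. There was no group of VT cells given DM-αKG.

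LAMP2A is the lysosomal membrane protein that takes up proteins in chaperone-mediated autophagy, in which a chaperone binds single cytosolic proteins and carries them to the lysosome for breakdown. α-Ketoglutarate, also called 2-oxoglutarate, is a metabolite of the TCA cycle and the co-substrate of dioxygenases that demethylate DNA and histones, hydroxylate collagen and mark hypoxia-inducible factor for breakdown. DM-αKG is its dimethyl ester, which enters cells. In ES cells, α-ketoglutarate is known for favouring the undifferentiated state.

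Totals ran from 23636074 to 32809875 counts per library, and replicates correlated at 0.994 to 0.997 (Pearson, log2 CPM across genes). Lamp2 itself had 99.9, 95.6 and 97.3 CPM in LAMP2A+DM-αKG, 408, 403 and 404 CPM in LAMP2A, and 57.2, 56.3 and 59.8 CPM in VT. Counts per gene separate neither Lamp2 splice forms nor vector-derived from endogenous transcript. Counted so, Lamp2 was far lower in the treated cells than in LAMP2A (log2 fold change -2.06, SE 0.0307, adjusted p = 4.0e-35), although it stayed above VT. The part of that difference in the genes described here was not tested. Pluripotency genes mark ES cells, and the summed level of 28 core and naive genes was far lower in LAMP2A than in the other groups. That sum was 10120 to 10174 CPM in LAMP2A+DM-αKG, 3620 to 3630 CPM in LAMP2A and 12238 to 12570 CPM in VT. In such bulk libraries, fewer cells of a type and less RNA per cell cannot be told apart.

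The name "kept high" holds only loosely for these genes. Against VT, the members stood at a median log2 ratio of 1.22 in LAMP2A+DM-αKG and 2.27 in LAMP2A. These ratios were used for the choice and carry no test. In LAMP2A+DM-αKG they ran from 1.01 to 2.59, with 20 members at 1.5 or more and 35 members under 1.2. Among the 14513 genes with enough counts to be tested, 1.64% had a log2 ratio over VT of at least 1 in LAMP2A+DM-αKG and 16.9% had one in LAMP2A, and 0.551% met all the thresholds. Of 929 genes raised in LAMP2A and at 5 CPM or more in LAMP2A+DM-αKG, symbols left out aside, the other 856 were under the 2-fold line against VT after treatment.

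**Figure D1:**
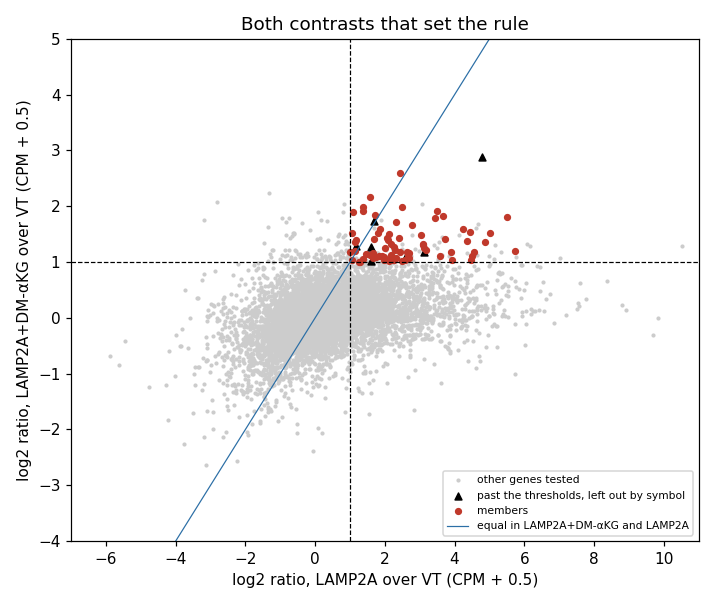
Log2 ratio over VT in LAMP2A+DM-αKG (y axis) against that in LAMP2A (x axis), from group mean CPM plus 0.5, for the 14513 genes tested. Red points are the 73 members, black triangles the 7 genes left out by symbol, dashed lines the thresholds at 1 and the blue line equal levels in both groups. Most members lie under the blue line, and grey points in the upper right corner are genes under 5 CPM in LAMP2A+DM-αKG.

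At the edges of the rule, values differed little. Sdc2, G0s2 and Ascl2 were just inside the level threshold with 5.05, 5.07 and 5.15 CPM in LAMP2A+DM-αKG, and Setbp1, Plcl2 and Snx21 were just outside with 4.84, 4.80 and 4.73 CPM. Ccdc68, Gabarapl1 and Zbtb4 were inside the threshold of LAMP2A+DM-αKG over VT at log2 ratios of 1.006, 1.008 and 1.021, against 0.997, 0.993 and 0.991 for Fam102b, a gene with a predicted (Rik) symbol and Tgfbr3. For LAMP2A over VT, Srgap1, Tmem117 and G0s2 were inside at 1.011, 1.054 and 1.055. Outside were Phka1, a phosphorylase kinase subunit, at 0.994, the transcription factor gene Atf5 at 0.929 and the oxygen sensor gene Egln1 at 0.905. The genes left out by symbol were led by the basement membrane collagen gene Col4a1, with mean levels of 346 CPM in LAMP2A+DM-αKG, 985 CPM in LAMP2A and 160.0 CPM in VT. Col4a2, Pfkfb3, Ddit4, P4ha2 and P4ha1 followed, at 152, 124, 88.9, 54.8 and 54.4 CPM in LAMP2A+DM-αKG.

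The contrast the rule sets no threshold on is LAMP2A+DM-αKG against LAMP2A. In edgeR's quasi-likelihood test over all genes, 61 members were lower in LAMP2A+DM-αKG, 9 were higher and 3 did not pass at an adjusted p under 0.05. Among all genes tested, 42.1% were called lower and 41.1% higher. Of the members, 38 were at least 2-fold lower (17.6% of all genes tested) and 8 at least 8-fold lower (5.54% of all genes tested), and no member was 2-fold higher (8.06% of all genes tested). The 61 and 38 are descriptions only, because the means of both groups entered the rule. The same limit applies to the p-values of single members, which are not fully independent of the choice. The median log2 fold change of the 73 was -1.10, beside -0.001 for all genes tested. It was -1.30 for LAMP2A-raised genes at 5 CPM or more in LAMP2A+DM-αKG, members included. The fall against LAMP2A is therefore not particular to the members.

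To set the genes on a common scale, the share of the rise left was taken as the difference between LAMP2A+DM-αKG and VT over the difference between LAMP2A and VT, in mean CPM. "Left" and "kept" are names for this ratio only. Without VT cells given DM-αKG, a remainder of the LAMP2A rise and an effect of DM-αKG itself cannot be told apart. The share uses the means that set the rule and carries no test. It spanned 2.48% to 242% with a median of 35.9%. In 11 members it was over 100%, in 16 it was 50 to 100%, in 35 it was 10 to 50% and in 11 under 10%. The genes most strongly raised by LAMP2A held no members: 16 genes were at 100 CPM or more in LAMP2A and at a log2 ratio of 6 or more over VT, and their share left was 0.11% at the median and at most 2.25%. Among them, the smooth muscle actin gene Acta2 had 0.0381 CPM in LAMP2A+DM-αKG, 486 CPM in LAMP2A and 0.0367 CPM in VT. All 73 members had every LAMP2A+DM-αKG library above every VT library, and each had at least 75 counts over the VT libraries together. The lack of overlap largely follows from the rule, which set a threshold on this same contrast, and is a description only. No share over all genes tested is given beside it, so it is not read as a trait of the members.

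**Figure D2:**
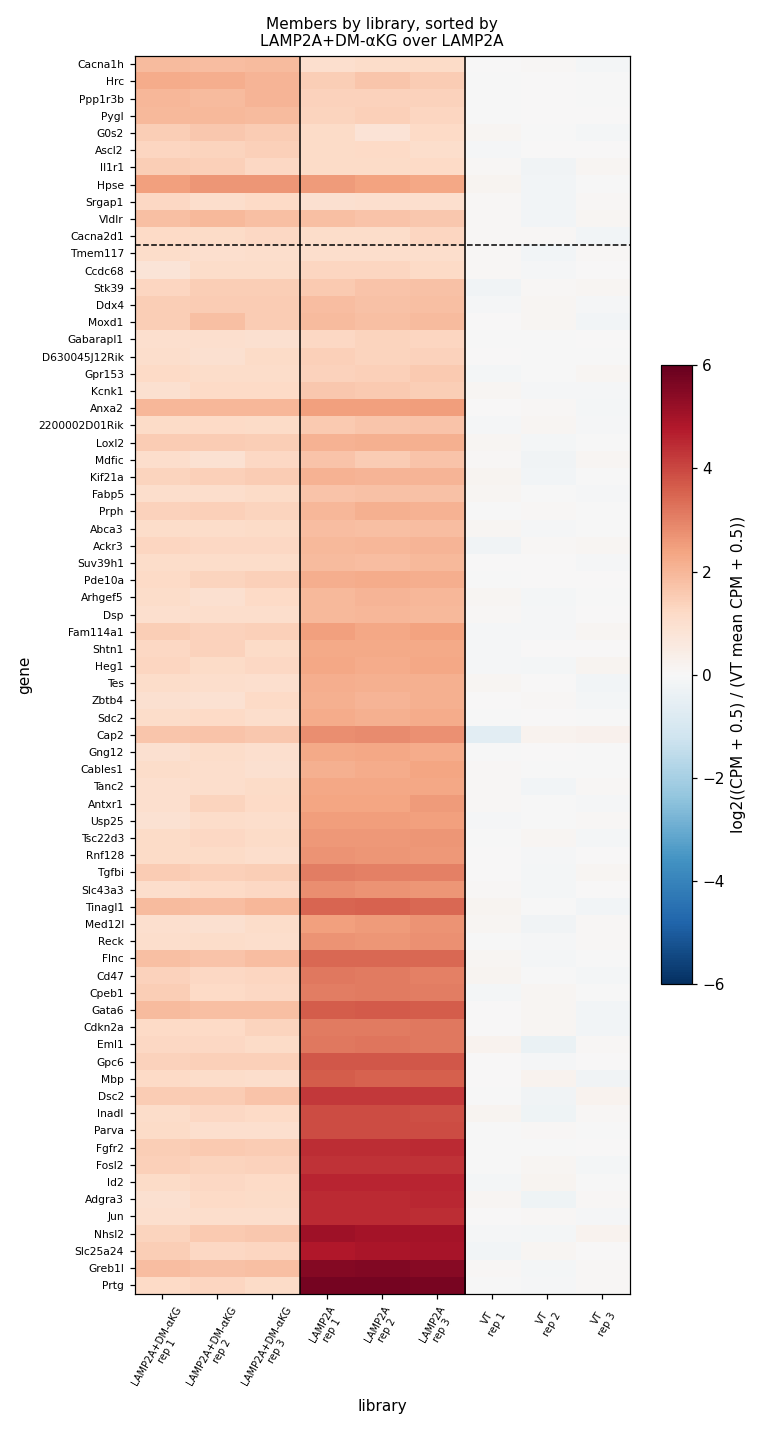
Level of the members (rows, 1 member not shown) in each library (columns: LAMP2A+DM-αKG, LAMP2A and VT, 3 libraries each), as log2 of CPM plus 0.5 over the VT mean plus 0.5. Rows run from the highest to the lowest log2 fold change of LAMP2A+DM-αKG over LAMP2A, and the dashed line marks where it turns negative. Replicates look alike within each group, and the LAMP2A columns darken down the rows while the LAMP2A+DM-αKG columns change little.

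The members that were higher with DM-αKG than without it included genes of glycogen, fat and calcium handling. Cacna1h, the pore subunit of a T-type calcium channel (chromosome 17, 25374285–25433783 of mm10, by GENCODE M21), had 14.5, 14.1 and 14.3 CPM in LAMP2A+DM-αKG, 7.41, 8.11 and 8.30 CPM in LAMP2A, and 3.56, 3.66 and 3.22 CPM in VT. The 3 groups did not overlap, and the treated cells were 1.80-fold above LAMP2A (log2 fold change 0.85, SE 0.0693, adjusted p = 2.4e-13). Hrc encodes a calcium-binding protein of the sarcoplasmic reticulum (chromosome 7, 45335290–45338974). Its levels were 6.35, 6.14 and 5.45 CPM in LAMP2A+DM-αKG, 3.60, 4.10 and 3.70 CPM in LAMP2A, and 0.942, 0.987 and 0.926 CPM in VT, again without overlap (log2 fold change 0.64, SE 0.101, adjusted p = 6.7e-07).

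A pair of glycogen genes behaved alike. Ppp1r3b, which brings protein phosphatase 1 to glycogen and so favours glycogen synthesis (chromosome 8, 35375739–35388139), had 14.4, 13.5 and 14.8 CPM in LAMP2A+DM-αKG, 9.11, 9.17 and 9.38 CPM in LAMP2A, and 3.23, 3.33 and 3.15 CPM in VT. Pygl, the liver form of glycogen phosphorylase, which breaks glycogen down (chromosome 12, 70190811–70231488), had 8.97, 8.999 and 8.69 CPM in LAMP2A+DM-αKG, 5.85, 6.22 and 5.496 CPM in LAMP2A, and 1.92, 2.01 and 2.00 CPM in VT. The log2 fold changes of LAMP2A+DM-αKG over LAMP2A were 0.63 (SE 0.0661, adjusted p = 1.3e-10) for Ppp1r3b and 0.59 (SE 0.0808, adjusted p = 4.0e-08) for Pygl. The phosphorylase kinase gene Phka1, just outside the rule, averaged 15.6 CPM in LAMP2A+DM-αKG, 14.8 CPM in LAMP2A and 7.16 CPM in VT.

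G0s2, an inhibitor of triglyceride lipase, had 4.82, 5.37 and 5.01 CPM in LAMP2A+DM-αKG, 3.75, 2.95 and 3.89 CPM in LAMP2A, and 1.60, 1.43 and 1.30 CPM in VT (log2 fold change 0.53, SE 0.112, adjusted p = 6.7e-05 for LAMP2A+DM-αKG over LAMP2A). Vldlr, a receptor for triglyceride-rich lipoproteins and a known target of hypoxia-inducible factor, had 18.2, 20.007 and 18.5 CPM in LAMP2A+DM-αKG, 18.5, 16.9 and 16.2 CPM in LAMP2A, and 5.08, 4.24 and 5.34 CPM in VT. Both sets of LAMP2A libraries overlapped for Vldlr, and the difference did not pass (log2 fold change 0.13, SE 0.0616, adjusted p = 0.055). The other lipid genes were lower with DM-αKG. Fabp5, a fatty acid carrier of the cytosol, averaged 15.6 ± 0.440 CPM in LAMP2A+DM-αKG, 25.1 ± 0.482 CPM in LAMP2A and 7.07 ± 0.596 CPM in VT (SD, n = 3). Abca3, a lipid transporter of lysosome-related organelles, averaged 70.8 ± 1.22 CPM in LAMP2A+DM-αKG, 117 ± 0.999 CPM in LAMP2A and 32.5 ± 2.09 CPM in VT (SD, n = 3). In all, of 6 members placed under glycogen and lipid, 3 were higher, 2 lower and 1 not past the test.

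The remaining higher members differed from LAMP2A by little. Srgap1, a GTPase-activating protein downstream of Robo receptors, had 35.5, 32.0 and 35.2 CPM in LAMP2A+DM-αKG, 29.8, 30.9 and 31.0 CPM in LAMP2A, and 15.4, 13.5 and 15.8 CPM in VT (log2 fold change 0.16, SE 0.0503, adjusted p = 0.0041). Hpse encodes heparanase, which cuts the heparan sulfate chains of matrix proteoglycans (chromosome 5, 100679484–100719716), and had the highest ratio of LAMP2A+DM-αKG over VT among the members, 7.73-fold, beside 6.88-fold for LAMP2A over VT. Its libraries had 10.5, 11.8 and 11.8 CPM in LAMP2A+DM-αKG, 11.0, 9.88 and 9.42 CPM in LAMP2A, and 1.72, 1.24 and 1.45 CPM in VT. LAMP2A+DM-αKG and LAMP2A overlapped for Hpse, and its call (log2 fold change 0.16, SE 0.0749, adjusted p = 0.043) was lost in DESeq2 (adjusted p = 0.22), with DESeq2's size factors in edgeR (0.060) and without any 1 of LAMP2A replicate 2 (0.12), LAMP2A replicate 3 (0.18), LAMP2A+DM-αKG replicate 2 (0.13) or LAMP2A+DM-αKG replicate 3 (0.15). The interleukin-1 receptor gene Il1r1 (log2 fold change 0.23, SE 0.0933, adjusted p = 0.021) lost its call in DESeq2 (adjusted p = 0.14) and without LAMP2A replicate 2 (0.062), LAMP2A+DM-αKG replicate 1 (0.098) or LAMP2A+DM-αKG replicate 2 (0.067). Ascl2, an imprinted transcription factor gene of trophoblast (log2 fold change 0.25, SE 0.0986, adjusted p = 0.022), lost it in DESeq2 (adjusted p = 0.17) and without LAMP2A replicate 3 (0.068) or LAMP2A+DM-αKG replicate 3 (0.10). Vldlr passed without VT replicate 2 (adjusted p = 0.035), VT replicate 3 (0.045), LAMP2A replicate 1 (0.015) or LAMP2A+DM-αKG replicate 1 (0.039). In edgeR it also passed with library totals only (0.049), no filter beyond a count above 0 (0.043) or the 6 libraries compared only (0.027). The calcium channel subunit gene Cacna2d1 (log2 fold change 0.04, SE 0.0736, adjusted p = 0.61) and Tmem117 (log2 fold change -0.02, SE 0.0730, adjusted p = 0.79) did not pass either. The authors' deposited table for this comparison lists all 73, with 6 called higher, 61 lower and 6 not past an adjusted p of 0.05, the last being Ascl2, Cacna2d1, Hpse, Il1r1, Tmem117 and Vldlr.

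Promoters are shown for the 4 members with the highest log2 ratios of LAMP2A+DM-αKG over VT, with 0.5 CPM added to both means, among those with a window in the RefSeq promoter table (GRCm38.p6, the assembly behind mm10): Hpse, Hrc, Anxa2 and Pygl. Each window covers 250 bases before to 50 bases after the annotated start, read 5′ to 3′ on the gene's strand. Capitals mark matches, on either strand, to ACGTG (core of the hypoxia response element), CACGTG (E-box), TGANTCA (AP-1), TGACG (core of the cyclic AMP response element), GGAATG (TEAD) and TATAAA (bound by TBP). CACGTG holds ACGTG. The windows are chr5:100719667-100719966 (minus strand), chr7:45335019-45335318 (plus), chr9:69453433-69453732 (plus) and chr12:70227634-70227933 (minus).
Hpse: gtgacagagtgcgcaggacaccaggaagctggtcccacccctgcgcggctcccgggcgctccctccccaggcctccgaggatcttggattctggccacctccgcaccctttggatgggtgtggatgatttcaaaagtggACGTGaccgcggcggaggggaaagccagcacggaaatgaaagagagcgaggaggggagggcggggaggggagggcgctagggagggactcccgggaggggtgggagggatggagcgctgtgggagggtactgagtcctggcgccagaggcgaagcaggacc
Hrc: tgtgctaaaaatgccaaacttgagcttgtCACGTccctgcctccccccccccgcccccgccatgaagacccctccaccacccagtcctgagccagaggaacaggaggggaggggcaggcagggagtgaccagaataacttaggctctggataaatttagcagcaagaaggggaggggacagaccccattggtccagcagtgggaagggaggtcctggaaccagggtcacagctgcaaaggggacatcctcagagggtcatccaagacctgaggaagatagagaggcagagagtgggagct
Anxa2: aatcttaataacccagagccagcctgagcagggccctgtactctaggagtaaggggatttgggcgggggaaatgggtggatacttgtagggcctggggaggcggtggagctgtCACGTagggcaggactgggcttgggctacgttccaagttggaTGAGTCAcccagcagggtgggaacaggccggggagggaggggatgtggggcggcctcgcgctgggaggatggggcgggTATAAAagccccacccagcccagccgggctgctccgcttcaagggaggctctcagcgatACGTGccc
Pygl: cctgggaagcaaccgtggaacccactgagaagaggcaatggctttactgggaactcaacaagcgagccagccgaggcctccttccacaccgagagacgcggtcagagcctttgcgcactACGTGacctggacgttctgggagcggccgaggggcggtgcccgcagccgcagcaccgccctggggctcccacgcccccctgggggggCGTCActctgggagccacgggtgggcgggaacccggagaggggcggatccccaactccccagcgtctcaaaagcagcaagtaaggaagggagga

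All 4 windows held ACGTG, beginning 111 bases before the start in Hpse, 221 in Hrc on the other strand, 137 in Anxa2 on the other strand, and 131 in Pygl. The Pygl window lies inside the GENCODE span given above, so its RefSeq start differs from the 5′ end of that span. Anxa2 also had a second ACGTG 43 bases after its start, and an AP-1 match 95 bases and a TATAAA match 17 bases before its start. In Pygl, a TGACG match on the other strand lay 44 bases before the start. Windows were found for 55 members, and ACGTG occurred in 17 of them (30.9%). It occurred in 25.4% of the windows of all genes tested, 24.2% of the windows of the 856 raised genes under the line and 34.1% of the windows of 55 genes that were 2-fold above VT only with DM-αKG. Of the 9 members higher than in LAMP2A, 7 had a window and 5 held ACGTG (Ascl2, Hpse, Hrc, Il1r1 and Pygl). Of these, Ascl2, Hpse and Il1r1 are the members whose higher call was lost in DESeq2. The windows of G0s2 and Srgap1 held no ACGTG. So few windows allow no comparison with all genes tested. The GC box GGGCGG, also searched and not capitalised, was in 83.6% of member windows and 64.9% of those of all genes tested. Matches to CACGTG (5.45% against 10.2%), TGANTCA (7.27% against 4.63%), TGACG (11 of 55 windows against 30.8%), GGAATG (14.5% against 12.2%) and TATAAA (9.09% against 6.91%) are given for members against all genes tested. The ratio of observed to expected CpG was at least 0.6 in 67.3% of member windows and 70.6% of those of all genes tested. Where a gene had several windows the first listed was used, and a match is a description of letters, not a bound site.

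**Figure D3:**
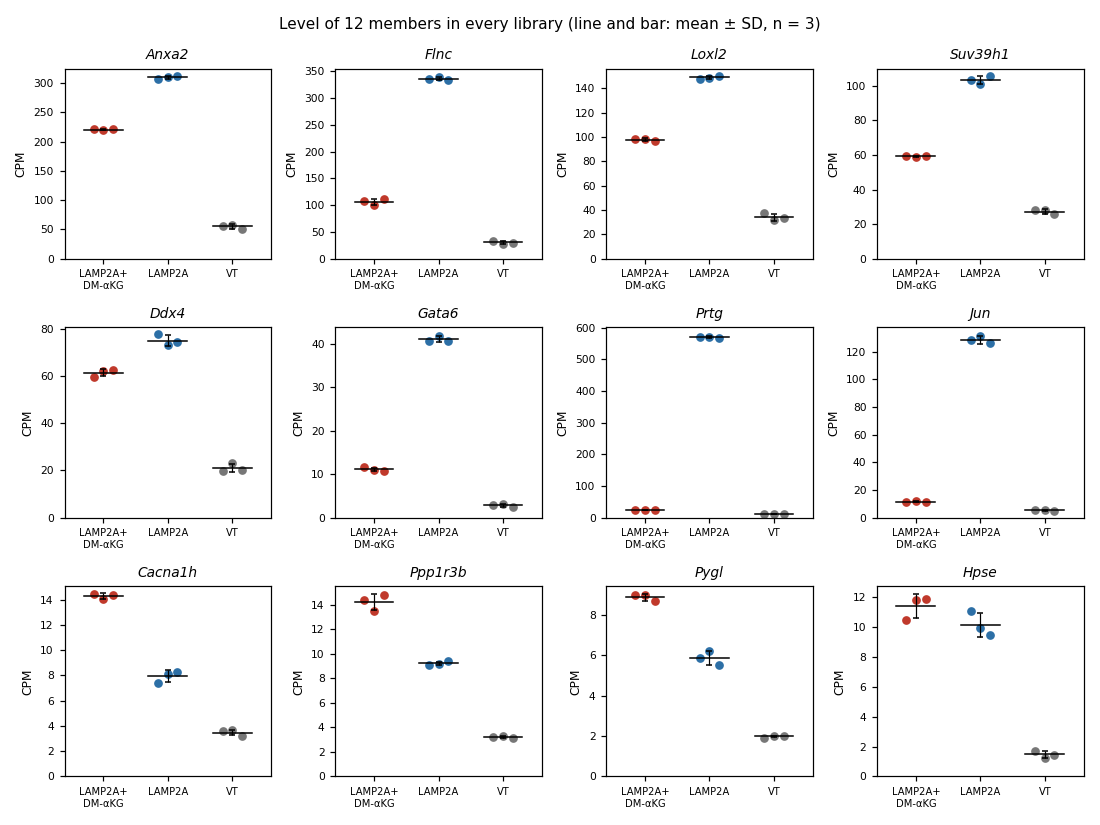
CPM of 12 members in each library of LAMP2A+DM-αKG (red), LAMP2A (blue) and VT (grey), with the mean and SD of 3 libraries, each panel on its own axis from 0. Cacna1h, Ppp1r3b and Pygl were highest in LAMP2A+DM-αKG, Hpse overlapped between LAMP2A+DM-αKG and LAMP2A, and the other 8 were highest in LAMP2A, with treated Prtg at 2.35-fold and treated Jun at 2.15-fold the VT mean.

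Genes of the extracellular matrix, proteoglycans and cell adhesion made up 14 members, of which 13 were lower in LAMP2A+DM-αKG than in LAMP2A and Hpse was higher. Anxa2, a membrane- and actin-binding annexin (chromosome 9, 69453620–69491795), had 221, 219 and 221 CPM in LAMP2A+DM-αKG, 307, 310.2 and 312 CPM in LAMP2A, and 56.8, 57.6 and 50.9 CPM in VT. It was 1.41-fold lower than in LAMP2A (log2 fold change -0.50, SE 0.0319, adjusted p = 3.5e-16), with 64.9% of its rise left. Per kilobase of exon it also had the highest level of all members in LAMP2A+DM-αKG, 59.1 CPM. Loxl2, a lysyl oxidase that cross-links collagen and a known hypoxia target (chromosome 14, 69609068–69695834), had 98.6, 98.5 and 96.5 CPM in LAMP2A+DM-αKG, 148, 149 and 150.4 CPM in LAMP2A, and 37.2, 31.8 and 33.2 CPM in VT (log2 fold change -0.61, SE 0.0353, adjusted p = 1.5e-17). The groups did not overlap for either gene.

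Matrix genes with smaller shares left included Tgfbi, which encodes a TGF-β-induced collagen-binding protein. It had 46.2, 43.7 and 44.8 CPM in LAMP2A+DM-αKG, 136, 133 and 132 CPM in LAMP2A, and 15.8, 14.3 and 17.2 CPM in VT, which leaves 24.7% of the rise (log2 fold change -1.58, SE 0.0384, adjusted p = 9.9e-29). Tinagl1, a basement membrane glycoprotein, had 18.7, 17.9 and 19.6 CPM in LAMP2A+DM-αKG, 57.6, 58.4 and 55.6 CPM in LAMP2A, and 5.28, 4.53 and 4.00 CPM in VT (log2 fold change -1.62, SE 0.0503, adjusted p = 1.7e-25). Reck, a membrane-anchored inhibitor of matrix metalloproteinases, averaged 19.4 ± 0.474 CPM in LAMP2A+DM-αKG, 60.5 ± 1.64 CPM in LAMP2A and 8.99 ± 0.359 CPM in VT (SD, n = 3). The heparan sulfate proteoglycan genes Gpc6 and Sdc2 averaged 14.1 and 5.05 CPM in LAMP2A+DM-αKG, 72.2 and 11.2 CPM in LAMP2A, and 4.97 and 2.06 CPM in VT. Desmosomes, the junctions that anchor intermediate filaments, were represented by Dsp and Dsc2. Dsp averaged 115 ± 0.625 CPM in LAMP2A+DM-αKG, 222 ± 2.74 CPM in LAMP2A and 56.0 ± 2.67 CPM in VT (SD, n = 3). Dsc2 averaged 10.6 ± 0.758 CPM in LAMP2A+DM-αKG, 69.5 ± 0.381 CPM in LAMP2A and 3.20 ± 0.520 CPM in VT (SD, n = 3). The share left was 35.9% for Dsp and 11.1% for Dsc2. Heg1, Antxr1 and Cd47, membrane proteins of cell contacts, matrix binding and integrin signalling, kept 34.2%, 29.1% and 19.8%.

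The smallest share left belonged to Prtg, protogenin, an immunoglobulin superfamily receptor of the early embryo (chromosome 9, 72806874–72917291). It had 24.03, 25.6 and 23.1 CPM in LAMP2A+DM-αKG, 572, 572 and 568 CPM in LAMP2A, and 10.2, 9.87 and 10.9 CPM in VT. It was thus 23.6-fold lower than in LAMP2A (log2 fold change -4.56, SE 0.0377, adjusted p = 1.3e-42) and still 2.35-fold above VT.

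Cytoskeletal, junction and GTPase-control genes were another 14 members, 13 lower than in LAMP2A and Srgap1 higher. Flnc, filamin C, an actin cross-linker of muscle (chromosome 6, 29433256–29461883), had 108, 100.1 and 112 CPM in LAMP2A+DM-αKG, 335, 339.6 and 335 CPM in LAMP2A, and 33.3, 28.2 and 30.3 CPM in VT (log2 fold change -1.66, SE 0.0367, adjusted p = 4.9e-29). Its level thus stayed 3.48-fold above VT. Prph, peripherin, an intermediate filament protein of peripheral neurons, had 44.6, 46.7 and 43.9 CPM in LAMP2A+DM-αKG, 69.7, 75.3 and 73.7 CPM in LAMP2A, and 16.5, 17.6 and 16.6 CPM in VT (log2 fold change -0.70, SE 0.0406, adjusted p = 1.9e-17). Parva, which links integrins to actin, had 28.1, 25.6 and 25.4 CPM in LAMP2A+DM-αKG, 197, 195 and 199 CPM in LAMP2A, and 12.2, 13.3 and 12.2 CPM in VT, leaving 7.48% of its rise (log2 fold change -2.91, SE 0.0395, adjusted p = 2.3e-36). Over 25% was left for the kinesin gene Kif21a (53.8%), the actin-regulator gene Cap2 (36.8%), Shtn1 (36.6%), the exchange factor gene Arhgef5 (38.2%), the focal adhesion gene Tes (31.5%) and Tanc2 (27.3%). Under 25% was left for Flnc (24.8%), the microtubule-binding protein gene Eml1 (16.5%), Mbp, known from myelin (10.7%), the tight junction scaffold gene Inadl, now named Patj (9.17%), and Nhsl2 (5.96%). The VT value of Cap2 rests on unequal libraries, at 1.06, 2.23 and 2.37 CPM.

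Transcription, chromatin and cell cycle genes counted 14 members as well, 13 lower than in LAMP2A and Ascl2 higher. Suv39h1, the histone methyltransferase that sets H3K9 trimethylation in heterochromatin (chromosome X, 8061171–8074760), had 59.3, 58.7 and 59.4 CPM in LAMP2A+DM-αKG, 103, 101 and 106 CPM in LAMP2A, and 27.9, 27.97 and 25.7 CPM in VT. It was 1.75-fold lower than in LAMP2A (log2 fold change -0.81, SE 0.0360, adjusted p = 8.6e-21).

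Gata6, a transcription factor that drives primitive endoderm (chromosome 18, 11052064–11085635), had 11.6, 10.9 and 10.9 CPM in LAMP2A+DM-αKG, 40.7, 41.9 and 40.7 CPM in LAMP2A, and 2.83, 3.11 and 2.45 CPM in VT. It was 3.71-fold lower than in LAMP2A (log2 fold change -1.89, SE 0.0547, adjusted p = 1.8e-26) and 3.98-fold above VT. Gata4, its usual partner and not a member, averaged 10.8 CPM in LAMP2A+DM-αKG, 30.3 CPM in LAMP2A and 5.88 CPM in VT. Cdkn2a, which encodes the cell cycle inhibitors p16 and p19ARF (not separated by counts per gene), had 7.87, 7.88 and 8.82 CPM in LAMP2A+DM-αKG, 31.1, 31.1 and 32.8 CPM in LAMP2A, and 3.28, 3.47 and 2.74 CPM in VT (log2 fold change -1.95, SE 0.0625, adjusted p = 4.5e-25).

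Some transcription genes kept under 10% of their rise. Jun, a subunit of AP-1, had 11.3, 11.7 and 11.5 CPM in LAMP2A+DM-αKG, 128, 131 and 126 CPM in LAMP2A, and 5.36, 5.56 and 5.11 CPM in VT (log2 fold change -3.48, SE 0.0447, adjusted p = 4.4e-37). Fosl2, another AP-1 subunit, averaged 8.63 ± 0.272 CPM in LAMP2A+DM-αKG, 70.8 ± 0.661 CPM in LAMP2A and 3.01 ± 0.238 CPM in VT (SD, n = 3). Id2, an inhibitor of basic helix-loop-helix factors and a BMP target, had 15.8, 16.5 and 15.9 CPM in LAMP2A+DM-αKG, 171 CPM in each LAMP2A library, and 6.14, 7.57 and 6.63 CPM in VT (log2 fold change -3.41, SE 0.0428, adjusted p = 2.3e-37). The share left was 5.01% for Jun, 8.29% for Fosl2 and 5.66% for Id2. Greb1l, needed for kidney development, kept 5.62%, with 10.7, 10.0 and 10.6 CPM in LAMP2A+DM-αKG, 141, 145 and 138 CPM in LAMP2A, and 2.74, 2.41 and 2.74 CPM in VT (log2 fold change -3.76, SE 0.0458, adjusted p = 1.0e-37). Mdfic, Zbtb4, Cables1, Tsc22d3 and Med12l kept 51.0%, 31.0%, 28.1%, 24.5% and 20.9%.

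**Figure D4:**
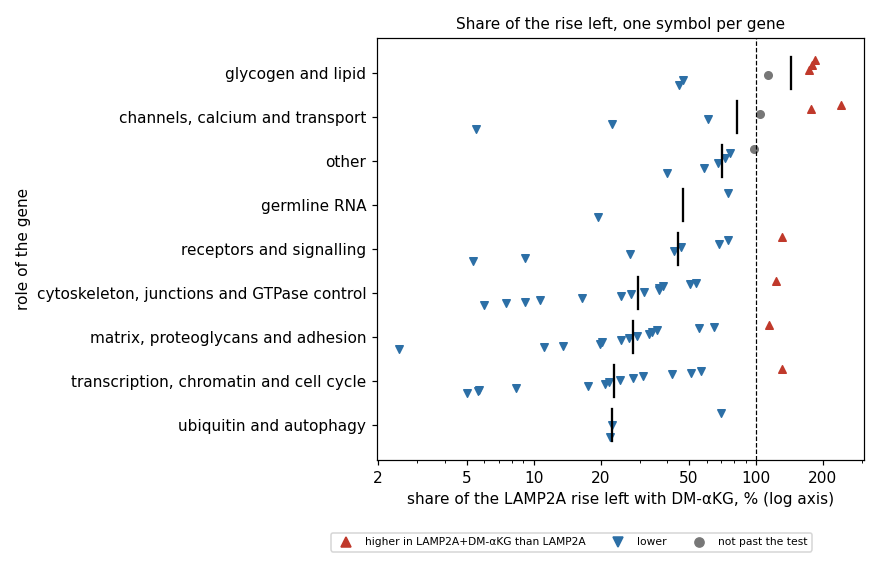
Share of the LAMP2A rise over VT that was left in LAMP2A+DM-αKG (x axis, %, log scale) for each member, grouped by role, with black bars at the group medians. Red upward triangles were higher than in LAMP2A, blue downward triangles lower and grey circles not past the test. Glycogen and lipid genes have the highest median, 144%, and matrix, cytoskeletal and transcription genes have medians of 27.9%, 29.4% and 23.1%. These medians are descriptions only, because the share uses the means that set the rule and roles were assigned by hand. A low share goes with a large rise in LAMP2A, since the ratios over VT in LAMP2A+DM-αKG span a narrower range.

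Receptors and signalling genes were lower than in LAMP2A in 7 of 8 cases, Il1r1 being higher. Fgfr2, a receptor for fibroblast growth factors, had 6.98, 7.26 and 7.18 CPM in LAMP2A+DM-αKG, 56.7, 56.1 and 57.6 CPM in LAMP2A, and 2.13, 2.08 and 2.22 CPM in VT (log2 fold change -2.99, SE 0.0545, adjusted p = 1.5e-32). The adhesion receptor gene Adgra3 kept 5.32% of its rise, at means of 8.44 CPM in LAMP2A+DM-αKG, 93.5 CPM in LAMP2A and 3.66 CPM in VT. More was left for the kinase gene Stk39 (74.6%), the orphan receptor gene Gpr153 (68.4%), the chemokine scavenger receptor gene Ackr3 (46.1%), the phosphodiesterase gene Pde10a (42.7%) and the G protein subunit gene Gng12 (27.2%).

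Among channels and carriers, Cacna1h and Hrc were higher, Cacna2d1 did not pass, and 3 were lower. Slc25a24, a mitochondrial ATP-magnesium and phosphate carrier, had 6.30, 5.29 and 5.41 CPM in LAMP2A+DM-αKG, 67.7, 71.2 and 72.6 CPM in LAMP2A, and 1.68, 2.08 and 1.96 CPM in VT (log2 fold change -3.64, SE 0.0609, adjusted p = 1.1e-33). The potassium channel gene Kcnk1 kept 60.6% of its rise and the transporter gene Slc43a3 22.6%.

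Germline RNA regulators were represented by Ddx4 and Cpeb1. Ddx4, the germ cell RNA helicase VASA (chromosome 13, 112598333–112652475), had 59.6, 62.3 and 62.4 CPM in LAMP2A+DM-αKG, 77.6, 73.2 and 74.2 CPM in LAMP2A, and 19.9, 22.96 and 20.3 CPM in VT, with no overlap between groups. It kept 74.9% of its rise (log2 fold change -0.29, SE 0.0400, adjusted p = 4.4e-08). Of the list of germline genes, 32 were tested, and Ddx4 alone stood at least 2-fold above VT in LAMP2A+DM-αKG, against 8 in LAMP2A. Cpeb1, which controls polyadenylation of stored mRNA, kept 19.5%. Of the ubiquitin and autophagy genes, the LC3-family gene Gabarapl1 averaged 26.8 ± 0.470 CPM in LAMP2A+DM-αKG, 32.9 ± 1.34 CPM in LAMP2A and 13.1 ± 0.353 CPM in VT (SD, n = 3), and the ubiquitin ligase gene Rnf128 and the deubiquitinase gene Usp25 kept 22.05% and 22.6%. The last 6 members had no role assigned here. Moxd1, Ccdc68, Fam114a1 and both Rik-named members were lower than in LAMP2A by log2 fold changes from -0.99 to -0.26, and Tmem117 did not pass. The call of Ccdc68 was lost without LAMP2A+DM-αKG replicate 1 (adjusted p = 0.067, against 0.0041 with all libraries).

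Gene lists show which pathways hold members. The list of hypoxia-inducible factor targets gave a single member, Vldlr. Loxl2, named above as a known hypoxia target, is not on that list. Another 4 genes of that list met the thresholds (Ddit4, P4ha1, P4ha2 and Pfkfb3) and are left out by symbol, and Adm was under the level threshold at 0.821 CPM in LAMP2A+DM-αKG. Of 33 tested genes of the list, 17 (51.5%) stood at least 2-fold above VT in LAMP2A+DM-αKG and 9 (27.3%) did in LAMP2A, with 6 in common. Against LAMP2A, 19 of the 33 were higher, 8 lower and 6 not past the test, with a median log2 fold change of 0.30. Among all genes tested, 41.1% were higher and 42.1% lower. Other lists had higher medians. ATF4 targets, a list that also holds Vldlr, had 0.92, with 21 of 26 tested genes higher and 2 lower. Glycolysis genes had 0.97, with 18 of 22 tested genes higher and 3 lower. Bhlhe40, Bnip3 and Ndrg1 averaged 154, 153 and 52.8 CPM in LAMP2A+DM-αKG, 44.1, 62.3 and 19.6 CPM in LAMP2A, and 71.7, 56.7 and 15.5 CPM in VT. For P4ha2, a collagen prolyl hydroxylase subunit, the means were 54.8 CPM in LAMP2A+DM-αKG, 53.1 CPM in LAMP2A and 16.1 CPM in VT (log2 fold change over LAMP2A 0.04, SE 0.0410, adjusted p = 0.37).

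In other lists with members, most of the genes above VT in LAMP2A were under 2-fold once treated. Among 30 TGF-β, Nodal and BMP targets, 2 stood at least 2-fold above VT in LAMP2A+DM-αKG (Id2 and Tgfbi) and 22 did in LAMP2A, and 26 were lower than in LAMP2A. Of 35 matrix glycoprotein and matricellular genes the counts were 3 in LAMP2A+DM-αKG (Fbn2, Bgn and Tgfbi) and 25 in LAMP2A. Endoderm genes had 2 of 26 in LAMP2A+DM-αKG, Gata6 and Cited1, and 21 of 26 in LAMP2A. For trophectoderm and placenta genes the counts were 4 of 21 in LAMP2A+DM-αKG (Ascl2, Krt19, Dlx3 and Eomes) and 16 of 21 in LAMP2A. Imprinted genes had 3 of 38 in LAMP2A+DM-αKG (Igf2, Dlk1 and Ascl2) and 25 of 38 in LAMP2A. The lists were drawn up with earlier results of these data known, and their counts are descriptions.

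**Figure D5:**
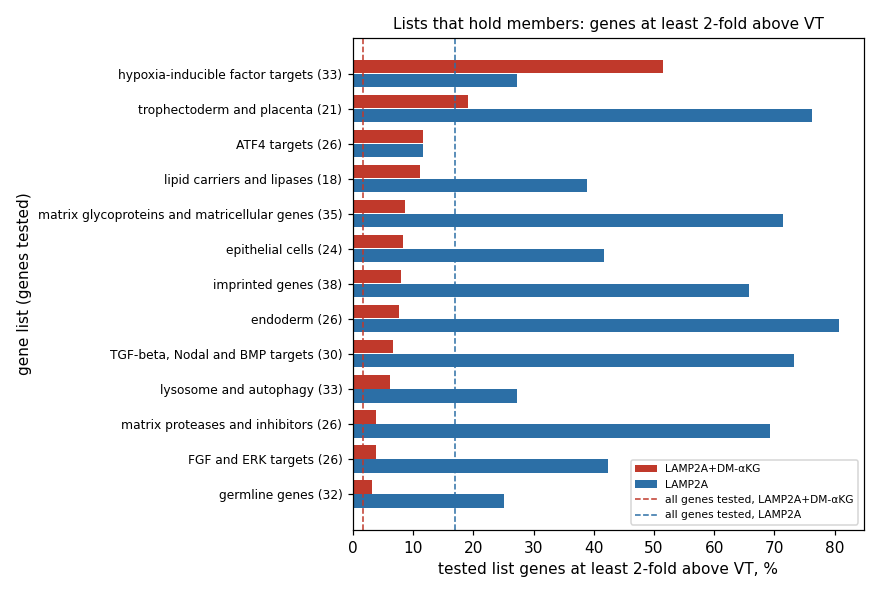
Share of the tested genes of each list that stood at least 2-fold above VT in LAMP2A+DM-αKG (red) and in LAMP2A (blue), for lists that hold a member, with the number tested in brackets. Dashed lines give the shares over all genes tested, 1.64% and 16.9%. The hypoxia-inducible factor list has the highest red bar, 51.5%, and is the list in which the red bar is longer than the blue.

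Summed markers of other cell types were higher in LAMP2A than in VT in every list but blood and endothelial cells. The sums of those 21 genes were 375 to 389 CPM in LAMP2A+DM-αKG, 219.5 to 223 CPM in LAMP2A and 329.7 to 346 CPM in VT, with Hba-a1 at 0. The summed level of 21 fibroblast and feeder markers was 2180 to 2269 CPM in LAMP2A+DM-αKG, 4632 to 4665 CPM in LAMP2A and 1458 to 1673 CPM in VT, so the sums of the treated libraries lay above VT. Of the 17 tested genes of this list, however, 0 stood at least 2-fold above VT in LAMP2A+DM-αKG and 15 did in LAMP2A. For 27 trophectoderm and placenta markers the sums were 599.7 to 605 CPM in LAMP2A+DM-αKG, 4598 to 4632 CPM in LAMP2A and 469.5 to 501 CPM in VT, with Prl3d1, Prl2c2 and Tpbpa at 0 in every library. The sums of endoderm markers were 1616 to 1634 CPM in LAMP2A+DM-αKG, 3587 to 3618 CPM in LAMP2A and 1625 to 1683 CPM in VT, and those of smooth and striated muscle markers 2620 to 2666 CPM in LAMP2A+DM-αKG, 13278 to 13349 CPM in LAMP2A and 2573 to 2792 CPM in VT. Their part in the levels of the members was not tested.

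The members were spread over the genome. They lay on 20 chromosomes, with 8 on chromosome 6 as the highest number, and no 2 members were neighbours among tested genes. Of their 144 distinct neighbours, 3 (2.08%) stood at least 2-fold above VT in LAMP2A+DM-αKG, against 1.64% of all genes tested, and 42 (29.2%) did in LAMP2A, against 16.9%. In 6 members more than 10% of the exon bases are shared with another annotated gene on the opposite strand, among them Cables1, Gabarapl1, Med12l and Suv39h1. The strand setting of the counting is not given in the sources used here, and these levels are less certain.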

How the data were processed

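Poly(A) RNA of 9 libraries was sequenced from stranded TruSeq libraries, per the labels' protocols. The authors deposited raw counts per gene symbol, per the submitters' processing notes with STAR 2.7.1, HTSeq 0.11.2 and build mm10, with annotation and strand setting not given in the sources used here. They also deposited their own comparison of LAMP2A+DM-αKG with LAMP2A, a table of log2 fold changes with p-values adjusted for multiple tests (the notes name DESeq2). It was used only to count calls.

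Levels are CPM on library totals. All genes were fitted together in edgeR 4.0.16 (R 4.3.3; filterByExpr, TMM, estimateDisp, robust glmQLFit, glmQLFTest) as group means over 9 libraries with 6 residual degrees of freedom. Adjusted p-values are Benjamini-Hochberg over 14513 genes, and the common biological coefficient of variation was 2.74%. SE was taken as |log2 fold change| divided by √F. The fit was tested on simulated data. DESeq2 1.42.0 and other settings served as alternatives. Replicate pairs of a group differed by more than counting noise (chi-square per degree of freedom 1.19 to 5.66), so none were merged. The numbers did not pair libraries of different groups.

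The members and lists were chosen with earlier results of these data known. The rule for genes named with values took the highest levels, the highest ratios over VT, the extremes of LAMP2A+DM-αKG over LAMP2A, genes near a threshold and members of lists, with predicted (Rik) symbols only counted. Other members, and genes shown beside them, were named after their values were seen. Roles were assigned by hand for ordering. The values of 1 member are not reported here, though it stays in the counts. Coordinates and exon lengths come from GENCODE M21 (GRCm38), which matched all 73 members, Inadl through the symbol Patj.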

Additional observations from a re-analysis of the deposited data

How the results depend on the processing

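The number of genes that meet the rule depends on its thresholds. It was 126 with a minimum of 1 CPM, 42 with 10 CPM, 16 with log2 ratios of at least 1.5 in both contrasts, and 42 when every LAMP2A and LAMP2A+DM-αKG library had to be 2-fold above every VT library, in place of 73. Those 42, 16 and 42 were all among the 73. Other pseudocounts gave 90 (0.1 CPM) and 57 (1 CPM), TMM-scaled totals gave 71, and leaving out 1 library gave 68 to 77, with 64 to 73 of the members among them. The split against LAMP2A was 9 higher and 61 lower in edgeR. Without 1 library it was 7 to 10 higher and 60 to 61 lower, and DESeq2 gave 6 and 61. The other settings gave 8 to 10 higher and 61 lower. With the replicate number as a block it was 9 and 61, and no member's call changed. Same-numbered libraries of different groups had correlations of their deviations between -0.027 and 0.012, so the numbers were not taken as pairs. No member reversed direction with a call in any setting. The lowest members, near 5 CPM in LAMP2A+DM-αKG and 1 to 3 CPM in VT, are the least precise.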
